A study of Rattus norvegicus with 8 samples.

Results

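The cytochrome P450, conjugation and steroid enzymes described here are the rat genes whose symbols place them among the P450s with their electron donor Por, the glutathione transferases, the UDP-glucuronosyltransferases, the sulfotransferases, the aldehyde dehydrogenases, the hydroxysteroid dehydrogenases and steroid 5-alpha-reductases, the aldo-keto and quinone reductases, the flavin monooxygenases, the carboxylesterases and the epoxide hydrolases. They were chosen by symbol alone from probe sets that the array annotation gives to a single gene, leaving out Cyp51 of cholesterol synthesis and Ugt8 of myelin galactolipid synthesis. This gave 132 of 7830 genes. EAE, experimental autoimmune encephalomyelitis, is a disease in which T cells that recognise myelin inflame brain and spinal cord. It had been induced in 4 virgin female Lewis rats by injecting 50 µg of myelin basic protein from guinea pig brain under the skin at the base of the tail, emulsified in Freund's incomplete adjuvant to which Mycobacterium butyricum had been added at 4.0 mg/ml. The EAE cords were taken on day 13, at the peak of disease. The controls were 4 untreated female Lewis littermates of the same age, 16 weeks, so no animal received the adjuvant alone. Whole spinal cords were read on 8 exon arrays, 1 array a rat.

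Enzymes of this class add or expose a reactive group on a small lipophilic molecule, or join that group to glucuronic acid, sulfate or glutathione, so that the product can be exported from the cell. P450s and the dehydrogenases also make and break down steroids, retinoids, oxysterols and oxidised fatty acids. The liver makes most of these enzymes in bulk, while brain and spinal cord hold smaller amounts, many of them in glia and at the blood vessels, and nervous tissue is known to make steroids of its own.

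All values are log2 intensities, and a gene's value on an array is the mean of its measured probe sets, each of which reads an exon or part of one. Levels of different genes cannot be compared on this scale. The control array of rat 195 stood apart, with the narrowest spread of log2 values (SD 2.11, the highest of the 8 being 2.26) and a median of 3.77 over olfactory receptor probe sets, against 3.16 to 3.49 on the other arrays. Results that rest on it are given with and without it. Background was read from 1050 olfactory receptor genes, which a spinal cord is not thought to use: a gene was called at background where its mean lay at or below their 95th percentile, 4.70 in EAE and 4.77 in controls, or at or below 5.22 in both groups where it was read by 1 probe set. Dim probe sets were not filtered from the olfactory genes, so these limits may be low.

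In total 119 of the 132 enzymes were measured, none of them only through the arrays of 1 group, and the other 13 had no probe set that passed the filter on dim values. Of the 119, 35 lay at background in both groups (29.4%, against 15.1% of all measured genes). At an adjusted p under 0.05, 11 enzymes were higher and 12 lower in EAE, together 19.3%. Over all 6961 genes tested, the share past the threshold was 31.1% (13.7% higher and 17.4% lower). Among genes above background in at least 1 group, the shares were 22 of 84 enzymes (26.2%; 11 higher and 11 lower) and 35.4% of genes (15.9% higher and 19.6% lower). The enzymes' median change was -0.09 and that of all genes -0.11, and a change of at least 1 on the log2 scale was found in 3 enzymes (2.52%) and in 7.56% of all genes, with genes at background in 1 group counted at their measured difference. The enzymes as a class thus held no larger a share of changed genes than the array as a whole, and whether the shares differ was not tested. The EAE and control values did not overlap in 20 of the 119 enzymes (16.8%) and in 33.2% of all genes. Among the 23 enzymes past the threshold they did not overlap in 17, and among the 2164 genes past it in 1975.

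Among the enzymes that rose were the conjugating enzymes Sult1a1, Mgst1, Ugt1a6 and Ugt1a5, the last 2 from control levels at background, and among those that fell were Aldh1a1 and Gstm5. Most P450s did not pass the test in either direction. In 9 enzymes the call held in all 16 alternative settings tried, which changed the filter, the normalization, the variance model or the gene summary, or left out 1 array: Ugt1a5, Ugt1a6, Sult1a1, Mgst1, Srd5a3, Nqo1 and Aldh9a1, which were higher, and Aldh1a1 and Cyp4x1, which were lower.

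**Figure D1:**
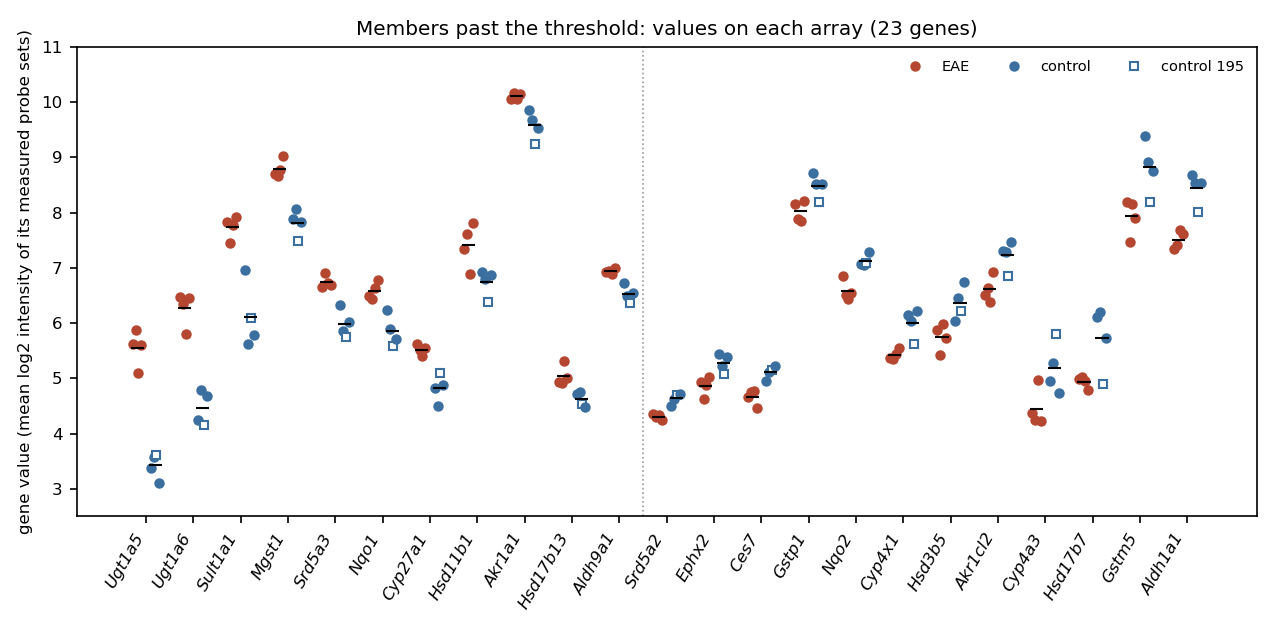
Gene values (mean log2 intensity of the measured probe sets) of the 23 enzymes past the threshold, one point per array, EAE left and control right for each gene, with black bars at group means. Genes left of the dotted line were higher in EAE and those right of it lower. The open squares mark control rat 195, which lay with the EAE arrays for Hsd17b7.

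Of the 3 enzymes past the threshold that changed by at least 1, Ugt1a5 had no listed promoter. The promoter sequences shown are those of the others, Ugt1a6 and Sult1a1, and of Nqo1. They are the 250 bases before the RefSeq gene start in the rat assembly GRCr8, on the gene's own strand, with the start to the right. Capitals mark matches to GCGTG, the core of the element bound by the aryl hydrocarbon receptor, on either strand. Nqo1 was added after its values were seen. No match to TGACNNNGC, the core of the antioxidant response element, or to TTCNNNGAA, a STAT element, stood in these windows. Bases farther upstream were not searched.
Ugt1a6, chr9:96194768-96195017, plus strand: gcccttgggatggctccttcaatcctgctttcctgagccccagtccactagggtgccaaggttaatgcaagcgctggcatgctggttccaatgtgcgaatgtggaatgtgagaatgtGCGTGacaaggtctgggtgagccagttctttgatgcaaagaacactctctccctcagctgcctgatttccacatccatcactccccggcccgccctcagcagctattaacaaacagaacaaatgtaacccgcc
Sult1a1, chr1:190706113-190706362, minus strand: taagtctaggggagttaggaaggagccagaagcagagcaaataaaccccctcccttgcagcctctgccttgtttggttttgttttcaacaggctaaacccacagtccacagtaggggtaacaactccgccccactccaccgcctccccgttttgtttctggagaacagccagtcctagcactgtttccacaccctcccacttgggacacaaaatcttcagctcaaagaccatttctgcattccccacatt
Nqo1, chr19:52220268-52220517, minus strand: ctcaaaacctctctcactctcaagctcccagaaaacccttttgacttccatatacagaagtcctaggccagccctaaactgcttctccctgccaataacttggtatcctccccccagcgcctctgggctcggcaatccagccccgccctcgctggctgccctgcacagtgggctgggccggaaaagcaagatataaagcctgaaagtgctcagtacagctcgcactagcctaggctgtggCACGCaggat
The match in Ugt1a6 began 133 bases before the start, and that in Nqo1, on the opposite strand, 10 bases before it. GCGTG stood in 27.2% of all 27457 listed promoters, TGACNNNGC in 10.2% and TTCNNNGAA in 7.52%. Of the 23 enzymes past the threshold 19 had a listed promoter, and 9, 5 and 1 of these held the 3 motifs in that order. Matches to GCGTG were found in 3 of the 9 listed promoters of enzymes that rose and in 6 of the 10 of enzymes that fell. These matches describe the letters of the windows and nothing about binding.

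UDP-glucuronosyltransferases join glucuronic acid to bilirubin, phenols, steroids and drugs. The Ugt1a genes are known to have first exons of their own spliced to a shared set of later exons. Of the 9 genes of this family 6 were measured, 2 rose and none fell. Ugt1a6, which in rat conjugates flat phenols, had 6.47, 6.35, 5.79 and 6.46 in EAE rats 217, 218, 219 and 241, against 4.24, 4.80, 4.16 and 4.67 in control rats 193, 194, 195 and 196, an order of animals kept below. Every EAE value lay above every control value. The difference was 1.80 ± 0.19 (SE, limma, adjusted p = 8.42e-05), and since the control mean lay at background the level was at least 2.82-fold higher in EAE. Ugt1a5 had 5.62, 5.88, 5.09 and 5.61 in EAE, against 3.38, 3.58, 3.62 and 3.11 in controls, again without overlap. Its measured difference was 2.13 ± 0.18 (adjusted p = 1.35e-05), and with controls at background the level was at least 1.72-fold higher in EAE. For such bounds, here and below, each array of the group at background was set at the background limit, or at its own value where that is higher. If the limit is too low, as it may be, such a bound is too large, and it carries no sampling error.

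Each of these genes was read by 2 probe sets of its own. Both passed in Ugt1a5, with changes of 1.99 and 2.27, but the one with 1.99 passed the filter on dim values only through the EAE arrays, which alone reached the limit, and so had to differ. In Ugt1a6, 1 passed with a change of 2.84 and the other, at 0.76, did not (adjusted p = 0.0660). A further 7 measured probe sets are annotated to 8 Ugt1a symbols at once and so belong to none of the genes counted here. All 7 were higher in EAE, by 1.06 to 2.23, with adjusted p from 3.25e-05 to 0.0103. Their mean was 7.47, 7.17, 6.91 and 7.51 in EAE rats, against 5.42, 5.57, 5.14 and 5.66 in controls, a difference of 1.82. Of 6 probe sets annotated to Ugt1a1 together with 1 other Ugt1a gene 3 were higher and none lower, the largest change being 2.23 in the probe set of Ugt1a7c with Ugt1a1. Ugt1a9, read by 1 probe set at background in both groups, averaged 4.65 in EAE and 4.73 in controls, a difference of -0.08 ± 0.29 (adjusted p = 0.860), and at this level a change may not be detectable. Ugt1a1, the bilirubin enzyme, was not measured. Because these genes are close relatives, a probe set may read transcripts of a neighbour, and the annotation used gives no exon for it. The Ugt2 genes, which conjugate steroids and odorants, had 3 measured genes, and their changes, from -0.09 in Ugt2a1 to 0.08 in Ugt2b37, did not pass.

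**Figure D2:**
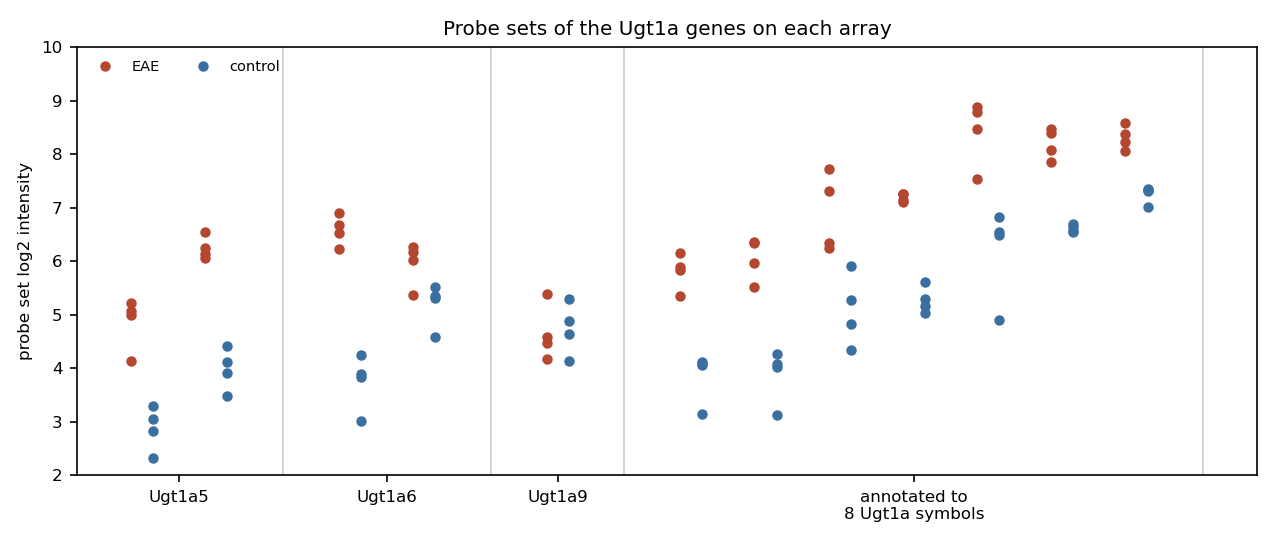
Log2 intensity of each measured probe set of Ugt1a5, Ugt1a6 and Ugt1a9 and of the 7 probe sets annotated to 8 Ugt1a symbols, with 1 point per array, EAE left and control right. EAE values lie above control values in both probe sets of Ugt1a5 and in all 7 shared ones, and overlap with controls in Ugt1a9 and in 1 probe set of Ugt1a6.

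Sulfotransferases move sulfate onto phenols, monoamines and steroids. Sult1a1, the phenol sulfotransferase, had 7.82, 7.45, 7.78 and 7.92 in EAE, against 6.96, 5.62, 6.09 and 5.79 in controls. The EAE rats lay close together and above all controls, among which rat 193 was highest. The mean was 7.74 ± 0.21 in EAE and 6.11 ± 0.59 in controls (SD, n = 4 each), a 3.09-fold difference (1.63 ± 0.26 on the log2 scale, adjusted p = 0.00111). All 9 of its probe sets were higher in EAE, by 1.10 to 2.42, and 8 passed. The 3 other measured sulfotransferases did not pass. Of these Sult1d1, which sulfates catechols in rodents, averaged 7.47 in EAE and 7.90 in controls (-0.43 ± 0.20, adjusted p = 0.131), while Sult1b1 and Sult1c3 lay at background in both groups. Both Sult2a genes on the array, the hydroxysteroid sulfotransferases, were not measured.

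Glutathione transferases couple glutathione to electrophiles, and the microsomal Mgst1 also reduces lipid peroxides. Of 12 measured genes 1 rose and 2 fell. Mgst1 had 8.70, 8.66, 8.78 and 9.03 in EAE, against 7.88, 8.06, 7.49 and 7.83 in controls, with no overlap. This was a 1.97-fold difference (0.98 ± 0.14, adjusted p = 0.000593), and all 4 of its probe sets were positive. Gstm5, a cytosolic mu class enzyme, had 8.20, 7.48, 8.16 and 7.90 in EAE, against 9.39, 8.92, 8.20 and 8.76 in controls. The groups met at control rat 195, whose value lay next to that of the highest EAE rat. The change was -0.88 ± 0.25 (adjusted p = 0.0217) with all arrays and -1.09 ± 0.21 (adjusted p = 0.00330) without rat 195. All 8 of its probe sets were lower in EAE, but the call was lost without EAE rat 218, EAE rat 241 or control rat 194 and with the median of its probe sets (highest adjusted p = 0.0575 over the settings). Gstp1, the pi class enzyme, was lower by a smaller amount, with means of 8.03 ± 0.19 in EAE and 8.49 ± 0.22 in controls (SD, n = 4 each; adjusted p = 0.0307), and was lost in 6 of 16 settings. Gstk1, a transferase of mitochondria and peroxisomes, averaged 6.46 in EAE and 5.86 in controls and missed the threshold (0.60 ± 0.21, adjusted p = 0.0537). The mu class genes are close relatives and their probe sets may read one another. Of 8 probe sets annotated jointly to Gsta2, Gsta3 and Yc2 of the alpha class 1 was lower and none higher.

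P450s are haem enzymes that insert oxygen into their substrates. They were the largest family, with 49 genes including Por, of which 46 were measured and 18 lay at background in both groups. Only Cyp27a1 rose, and Cyp4a3 and Cyp4x1 fell. Cyp27a1, the mitochondrial enzyme that makes 27-hydroxycholesterol and starts the acidic route to bile acids, had 5.62, 5.51, 5.40 and 5.55 in EAE, against 4.82, 4.50, 5.10 and 4.89 in controls. All EAE values were above all controls (0.69 ± 0.13, adjusted p = 0.00339). With the median of probe sets in place of the mean the call was lost (adjusted p = 0.148). Cyp4x1, a P450 known from brain, fell to a mean of 5.43 ± 0.09 in EAE, against 6.01 ± 0.26 in controls (SD, n = 4 each), with no overlap (-0.58 ± 0.14, adjusted p = 0.00990). Cyp4a3, an omega-hydroxylase of fatty acids in rat liver and kidney, had 4.37, 4.24, 4.96 and 4.23 in EAE, against 4.94, 5.27, 5.81 and 4.74 in controls. The groups overlapped, EAE lay at background, and control rat 195 was the highest. With all arrays, rat 195 among them, the level was at least 1.34-fold higher in controls, and no bound was computed without that rat. The measured difference was -0.74 ± 0.24 (adjusted p = 0.0421) with rat 195 and -0.53 ± 0.20 (adjusted p = 0.0687) without it, and the call was lost in 7 of 16 settings.

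Some P450s are given for their known role and not for their change. Cyp1a1 and Cyp1b1 are textbook targets of the aryl hydrocarbon receptor. Cyp1a1 lay at background, with 4.81 ± 0.24 in EAE and 4.57 ± 0.10 in controls (SD, n = 4 each; adjusted p = 0.182). Cyp1b1 had 6.68, 6.66, 5.73 and 5.89 in EAE, against 5.20, 5.17, 6.50 and 5.39 in controls. Rat 195 was the control inside the EAE range, and the change of 0.67 ± 0.33 (adjusted p = 0.148) became 0.98 ± 0.24 (adjusted p = 0.0117) without it. Of the enzymes that make steroid hormones, Cyp11a1, which cleaves the side chain of cholesterol, and Cyp19a1, the aromatase, lay at background in both groups. Cyp17a1, which leads to androgens, averaged 6.03 in EAE and 6.19 in controls (adjusted p = 0.580). The shared electron donor Por averaged 6.10 in EAE and 6.25 in controls (adjusted p = 0.370). Of 7 probe sets annotated jointly to Cyp2j3 and Cyp2j4, fatty acid epoxygenases, 1 was higher and none lower. The 3 flavin monooxygenases, which oxidise nitrogen and sulfur in drugs and amines, did not pass. The larger differences were 0.24 ± 0.22 in Fmo2 (adjusted p = 0.436) and -0.23 ± 0.10 in Fmo4 (adjusted p = 0.0979).

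Aldehyde dehydrogenases turn aldehydes into acids, and the Aldh1a enzymes make retinoic acid from retinal. All 10 were measured, 1 rose and 1 fell. Aldh1a1 had 7.34, 7.42, 7.68 and 7.61 in EAE, against 8.68, 8.55, 8.01 and 8.54 in controls. Every control value was above every EAE value, rat 195 being the lowest control. The difference was -0.93 ± 0.16 (adjusted p = 0.00148), so that the level was 1.91-fold higher in controls. All 11 of its probe sets were lower in EAE, by values from -1.31 to -0.33, and 9 passed. The other retinaldehyde dehydrogenases did not pass: Aldh1a2 averaged 5.71 in EAE and 5.39 in controls (adjusted p = 0.312), and Aldh1a3 4.83 in EAE and 4.87 in controls (adjusted p = 0.877). Aldh9a1, which acts in carnitine synthesis, had 6.93, 6.94, 6.89 and 7.0 in EAE, against 6.72, 6.49, 6.36 and 6.55 in controls, a tight EAE group above all controls (0.41 ± 0.10, adjusted p = 0.0142).

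Aldo-keto reductases reduce carbonyl groups with NADPH, and the quinone reductases Nqo1 and Nqo2 pass a pair of electrons to quinones. Of 14 measured genes 2 rose and 2 fell, and Nqo1 and Nqo2 moved in opposite directions. Nqo1 had 6.50, 6.43, 6.63 and 6.77 in EAE, against 6.23, 5.89, 5.58 and 5.72 in controls, without overlap (0.73 ± 0.15, adjusted p = 0.00497). Nqo2 fell to a mean of 6.58 ± 0.18 in EAE, against 7.12 ± 0.11 in controls (SD, n = 4 each; -0.54 ± 0.12, adjusted p = 0.00628), also without overlap. Its call was lost with the median of its 3 probe sets (adjusted p = 0.227). Akr1a1, the aldehyde reductase, rose to 10.1 ± 0.05 in EAE, against 9.58 ± 0.26 in controls (SD, n = 4 each; adjusted p = 0.0136), and did not pass with the median of its probe sets (adjusted p = 0.185). The annotation's Akr1cl2 is now named Akr1e2, a reductase of the sugar 1,5-anhydrofructose. It had 6.51, 6.64, 6.39 and 6.92 in EAE, against 7.31, 7.30, 6.85 and 7.48 in controls. The highest EAE rat lay just above control rat 195 (-0.62 ± 0.16, adjusted p = 0.0156), and the call was lost with the median of its probe sets (adjusted p = 0.0560).

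Carboxylesterases and epoxide hydrolases open esters and epoxides. Of 6 measured genes 2 fell and none rose. The annotation's Ces7, now Ces5a, had 4.67, 4.76, 4.76 and 4.47 in EAE, which is at background, against 4.96, 5.11, 5.15 and 5.22 in controls. No values overlapped (-0.45 ± 0.11, adjusted p = 0.0117), and the level was at least 1.3-fold higher in controls. Without the filter on dim probe sets the call was lost (adjusted p = 0.0909). Ephx2, the soluble epoxide hydrolase that breaks down epoxides of arachidonic acid, fell to 4.87 ± 0.17 in EAE, against 5.28 ± 0.16 in controls (SD, n = 4 each; adjusted p = 0.0295). Its call was lost in 6 of 16 settings, each of which left out 1 array. Ephx1, the microsomal form that acts on drug epoxides, averaged 5.36 in EAE and 5.21 in controls (adjusted p = 0.728).

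**Figure D3:**
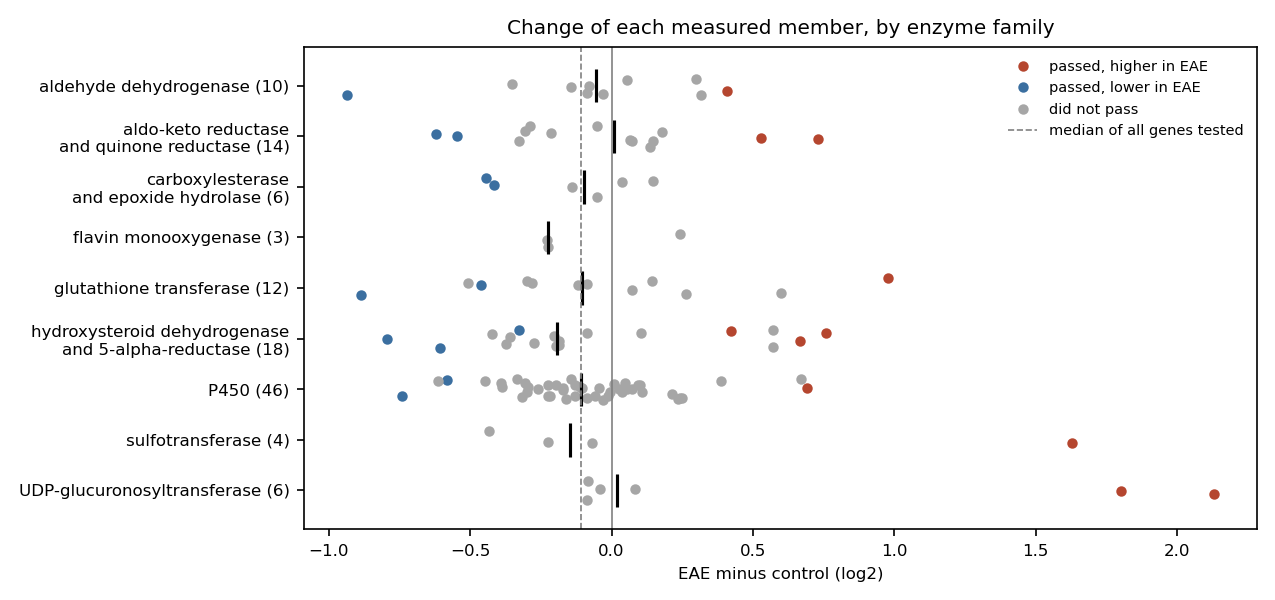
EAE minus control difference (log2) of each of the 119 measured enzymes by family, with the number measured in brackets. Red points passed the threshold higher in EAE and blue points lower, grey points did not pass, black bars are family medians and the dashed line is the median of all genes tested, -0.11. The 3 points beyond 1 are Ugt1a5, Ugt1a6 and Sult1a1.

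Hydroxysteroid dehydrogenases switch steroids between active and inactive forms, and several act instead on fatty acids or sterol precursors. With the 5-alpha-reductases they made up 21 genes, of which 18 were measured, 3 rose and 3 fell. Srd5a3, known for reducing polyprenol to dolichol for protein glycosylation, had 6.65, 6.90, 6.73 and 6.69 in EAE, against 6.33, 5.85, 5.74 and 6.02 in controls, with no overlap (0.76 ± 0.14, adjusted p = 0.00239). Srd5a2, a 5-alpha-reductase of testosterone, passed as lower with both groups at background (4.31 in EAE and 4.64 in controls, adjusted p = 0.0235) and was lost in 7 of 15 settings. Srd5a1, the form known from brain, averaged 6.60 in EAE and 7.02 in controls and missed the threshold (-0.42 ± 0.15, adjusted p = 0.0616). Without control rat 195 it passed (-0.50 ± 0.15, adjusted p = 0.0320).

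Hsd11b1, which regenerates active corticosterone, averaged 7.41 ± 0.40 in EAE and 6.74 ± 0.25 in controls (SD, n = 4 each; 0.67 ± 0.20, adjusted p = 0.0320). The lowest EAE rat, 219 at 6.88, lay inside the control range, and the call was lost without rat 195 (0.54 ± 0.20, adjusted p = 0.0626) and in 6 other settings. Hsd11b2, which inactivates corticosterone, averaged 4.59 in EAE and 4.78 in controls, at or next to background (adjusted p = 0.337). Hsd17b7, which serves both oestradiol and cholesterol synthesis, had 4.98, 5.03, 4.96 and 4.79 in EAE, against 6.11, 6.19, 4.89 and 5.73 in controls. Control rat 195 lay among the EAE rats, while the other controls lay clearly above them. The change was -0.79 ± 0.25 (adjusted p = 0.0359) with all arrays and -1.07 ± 0.13 (adjusted p = 0.000283) without rat 195. Leaving out any other array ended the call (highest adjusted p = 0.0953). Hsd3b5, read by a single probe set, fell to 5.76 ± 0.24 in EAE, against 6.36 ± 0.31 in controls (SD, n = 4 each; -0.61 ± 0.18, adjusted p = 0.0252), and was lost in 5 of 16 settings. Hsd17b13, a lipid droplet protein of liver, rose to 5.05 ± 0.19 in EAE, against 4.62 ± 0.13 in controls at background (adjusted p = 0.0264), a rise of at least 1.21-fold that was lost in 5 of 16 settings.

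Without control rat 195, 28 enzymes passed, 12 higher and 16 lower, in a fit where 33.6% of all genes passed. They held 21 of the 23 found with all arrays. The 2 lost were Cyp4a3 and Hsd11b1. Besides Cyp1b1 and Srd5a1, the 7 gained were Cyp4f6 (0.49), Akr1b10 (-0.56), Akr7a3 (-0.39), Hsd17b12 (-0.52) and Hsd17b4 (-0.32), each given as its change in that fit.

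Probe sets of a gene did not always move alike. Of 647 measured probe sets of the enzymes 45 were higher and 42 lower in EAE (13.4%), where 20.4% of all 62176 probe sets passed. At least 1 probe set passed in 37 enzymes, and in none of them did probe sets pass in both directions. Of the 22 enzymes past the threshold with several probe sets, 10 had all of them of 1 sign. These counts per gene were not made over all genes, so whether they are unusual cannot be said. In a test of unequal change among the probe sets of a gene (diffSplice F test), 8 of 87 enzymes with at least 3 measured probe sets passed (9.2%), against 26.6% of 5563 genes. These were Cyp27a1 (adjusted p = 0.00246), Cyp4x1 (0.00264), Nqo1 (0.00333), Akr1a1 (0.00830), Srd5a3 (0.0130), Hsd17b7 (0.0273), Hsd17b4 (0.0309) and Srd5a2 (0.0485). The first 3 also passed under a test of each probe set's deviation from the rest of its gene. The others did not, with adjusted p there from 0.0543 in Srd5a2 to 0.507 in Hsd17b4, and 0.0965 in Hsd17b7. Hsd17b12 passed the deviation test (0.0402) but not the F test (0.234). The F test calls of Cyp27a1 and Nqo1 held when any 1 array was left out, and that of Cyp4x1 was lost only without EAE rat 217 (adjusted p = 0.0506). Those of Akr1a1 and Srd5a3 were each lost in 4 of 8 such fits. Those of Hsd17b7, Hsd17b4 and Srd5a2 were lost in 7 of 8 and held only without control rat 195. There Hsd17b7 had an F test adjusted p of 9.48e-10, against 0.108 to 0.174 without any other array. The F test counts the probe sets of a gene as separate readings, though they share arrays. Its p therefore does not measure the spread between rats. With all arrays but a higher cut-off for dim values, the call of Cyp27a1 was lost (adjusted p = 0.0923), as were others given below.

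In Cyp27a1, 4 of 8 probe sets passed as higher, with changes of 1.12 to 1.42, and the other 4 changed by -0.28 to 0.50. Those 4 had control means of 4.12 to 5.13, below the olfactory limit of 5.22 for probe sets. The dimmest of the 8 in controls, at 3.43, rose, but it passed the filter only through the EAE arrays and so had to differ. Of all 647 probe sets 5 passed through the arrays of 1 group only. In Cyp4x1, 9 of 10 probe sets were lower in EAE, and 3 passed. The largest fall was in 1 with 5.09, 5.25, 5.76 and 5.88 in EAE, against 6.93, 6.99, 7.44 and 7.74 in controls (-1.78 ± 0.25, adjusted p = 0.000756). The brightest 2 probe sets of Cyp4x1 changed by -0.29 and -0.31 and did not pass. In Nqo1, 6 of 7 probe sets were higher in EAE, and 3 passed, with changes of 0.80 to 1.56. Hsd17b4, the multifunctional enzyme of peroxisomal beta-oxidation, had 26 probe sets of which none passed, and its gene value averaged 8.59 in EAE and 8.87 in controls (-0.27 ± 0.11, adjusted p = 0.0742). Dim and bright probe sets were thus both among those that did not pass. When the cut-off for dim values was raised to the 50th percentile, 3 calls of the diffSplice F test were lost. These were Cyp27a1 (adjusted p = 0.0923), Srd5a3 (0.148) and Hsd17b7 (0.243). Those of Akr1a1 (0.00762), Cyp4x1 (0.0325), Hsd17b4 (0.0370) and Nqo1 (0.0442) held, and Srd5a2 had no value there. The higher cut-off also changes which probe sets are compared, so the part of brightness by itself was not tested.

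**Figure D4:**
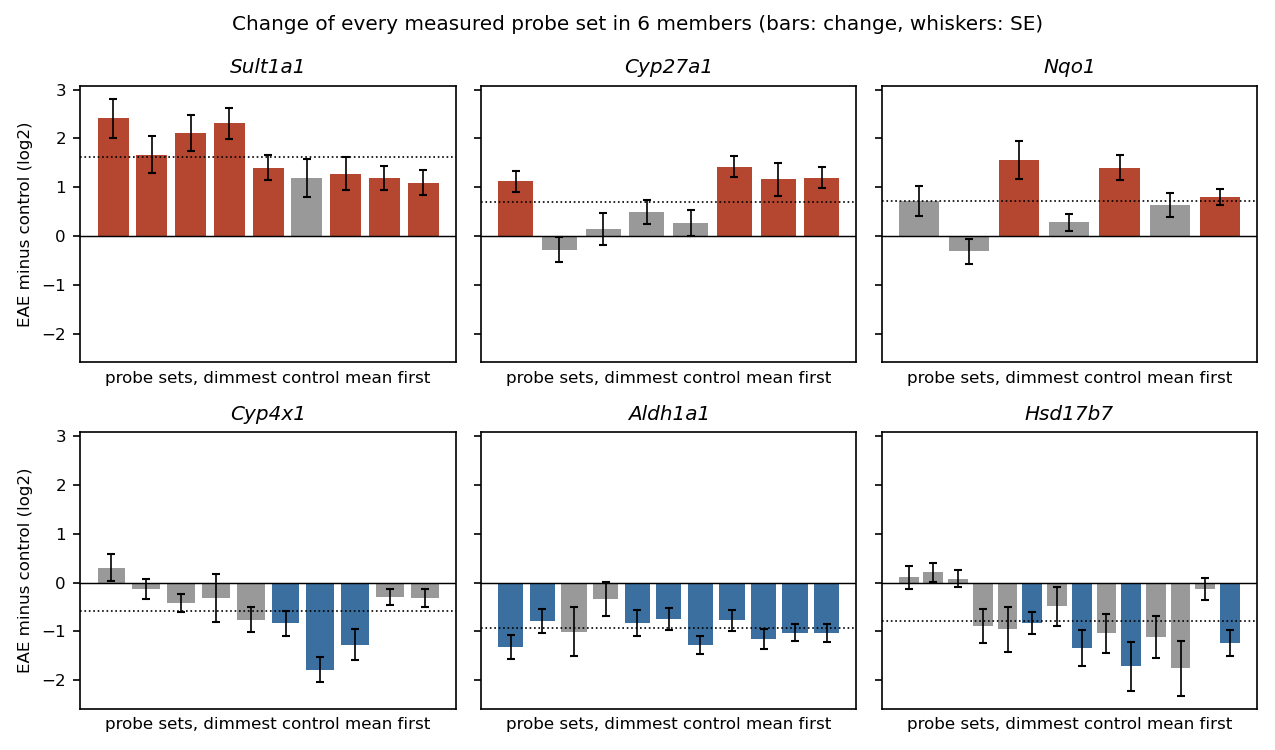
EAE minus control difference (log2, whiskers SE) of every measured probe set in 6 enzymes, ordered from the dimmest to the brightest control mean, with the gene's change as a dotted line. Red and blue bars passed the threshold, grey bars did not. All probe sets of Sult1a1 were higher in EAE and all of Aldh1a1 lower. Cyp27a1, Nqo1, Cyp4x1 and Hsd17b7 each had probe sets of both signs, and only some passed. In Hsd17b7, 11 of 14 were lower and 4 passed.

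Regulators, cofactors and transporters of these enzymes were read from lists of genes outside the class. Their counts stand beside the 31.1% of all genes that passed, and no list was tested as a set. Of 22 measured regulators 3 rose and 3 fell. Nfe2l2, the transcription factor that drives Nqo1 and glutathione genes under oxidative stress, averaged 9.82 ± 0.14 in EAE and 7.96 ± 0.32 in controls (SD, n = 4 each; 1.86 ± 0.16, adjusted p = 1.70e-05). Ahr, the aryl hydrocarbon receptor, averaged 6.24 ± 0.34 in EAE and 4.66 ± 0.10 in controls, which is at background, so that it was at least 2.76-fold higher in EAE (measured difference 1.58 ± 0.16, adjusted p = 5.67e-05). Of the other regulators, Pparg (-0.74) lay at background in both groups, and Rxrg fell to background in EAE (measured difference -0.55), with a level at least 1.27-fold higher in controls. The pregnane and constitutive androstane receptors Nr1i2 and Nr1i3, which drive P450 genes in liver, did not pass (changes of -0.08 and -0.27).

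Of 10 genes linked to Nfe2l2 outside the class 4 rose, among them the thioredoxin Txn1 (1.0 ± 0.10, adjusted p = 4.24e-05), and 1 fell. The haem oxygenase Hmox1 was at least 3.70-fold higher in EAE, with controls at background (measured difference 2.08 ± 0.26, adjusted p = 0.000258). The gene that fell was Gclm, the modifier subunit of the enzyme that starts glutathione synthesis (-0.65 ± 0.12, adjusted p = 0.00216). It is also in the glutathione list, where 4 of 10 rose, led by the peroxidases Gpx1 (1.28) and Gpx3 (1.21). Of 19 measured exporters and importers of drugs and conjugates 4 rose and 2 fell. Slco2b1, an importer of steroid sulfates, rose by 1.17, and Abcb4, a phospholipid exporter, by 0.53, while Slco1c1, the thyroxine importer of brain vessels, changed by -0.76 and Slc22a8, an organic anion carrier, by -0.63. None of the 3 measured genes that supply UDP-glucuronic acid or sulfate passed.

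Among 9 measured genes of steroid supply and electron donation 2 rose and 1 fell. Tspo, a cholesterol-binding protein of the outer mitochondrial membrane and a marker of reactive glia and macrophages, was at least 1.51-fold higher in EAE, with controls at background (measured difference 0.81 ± 0.20, adjusted p = 0.0136), and the reductase Cyb5r3 rose by 0.71 ± 0.19 (adjusted p = 0.0194). Dhcr7, of the last step in cholesterol synthesis, changed by -0.85 ± 0.15 (adjusted p = 0.00169). Of 6 measured steroid receptors only the progesterone receptor Pgr passed (-0.83 ± 0.20, adjusted p = 0.0111). In the retinoid list of 7, Dhrs4 rose by 0.34, and Dhrs9 (-0.92) was at background in both groups.

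Markers of several cell types moved with these results. All 6 monocyte and macrophage markers and all 7 T cell markers rose, and their mean ran from 8.45 to 8.88 and from 6.17 to 6.32 in EAE, against 4.77 to 5.09 and 3.96 to 4.37 in controls. In controls 4 of the 6 and 6 of the 7 lay at background, among them Ccr2 and Cd3d. All 5 microglial markers rose too (8.18 to 8.31 in EAE, 6.41 to 6.85 in controls). Of 9 oligodendrocyte markers 6 fell (8.58 to 8.83 in EAE, 9.04 to 9.48 in controls), as did 4 of 7 neuronal ones (9.51 to 9.89 in EAE, 10.03 to 10.41 in controls). Of 10 astrocyte markers 4 rose and 1 fell. Of 5 endothelial and pericyte markers 1 fell, and of 6 of meninges and fibroblasts none passed. Of 3 ependymal markers 1 fell, of 2 B cell markers 1 rose, and none of 3 neutrophil markers passed. The globins Hba-a2 (-2.43) and Hbb (-2.26) were lower in EAE, and the mean of the 3 erythroid markers ran from 5.47 to 6.25 in EAE and from 6.98 to 7.84 in controls. None of 8 liver markers passed (4.70 to 5.21 in EAE, 4.77 to 5.15 in controls). The part of these cells in the enzyme results was not tested, and in whole cords fewer cells of a type and less RNA per cell cannot be told apart.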

How the data were processed

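RNA from 8 spinal cords, 4 EAE and 4 control, was amplified and biotinylated with NuGEN kits and hybridised to exon arrays, per the labels' protocols. The authors deposited log2 intensities of 80939 probe sets, with Affymetrix Expression Console, RMA and Partek named in the submitters' processing notes without roles or versions. No genome build is named in the labels or files used here. The labels give no litter or batch per animal. Rats are separate animals, and their number limits the precision.

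Symbols came from the platform annotation. Of the 132 enzymes 118 had a current symbol in a RefSeq gene table (GRCr8) and 14 were matched through a synonym. Their 1093 probe sets were reduced to 647 measured ones, those that reached log2 3.98, the 25th percentile over the whole table, on 4 or more arrays. Gene values were means of measured probe sets. Genes (6961) and probe sets were fitted by lmFit and eBayes of limma 3.58.1 (R 4.3.3; 2-sided, EAE minus control), with Benjamini-Hochberg adjustment over all features and a threshold of 0.05. Changes carry SE, group means SD. Exon usage was tested with diffSplice. Steps were tested on simulated data. Figures used Python 3.11.15 with numpy 2.4.6 and matplotlib 3.10.9. Promoters came from RefSeq tables. Protein sequences were not analysed here.

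Values were given for each enzyme past the threshold that changed by at least 0.5 or was among the 3 largest rises or falls of its family, for those with unequal change among probe sets, for the 2 largest differences in a family with none past it, and for up to 2 rises and 2 falls per list. Others are named for their role or for their change without rat 195, chosen after their values were seen. Enzymes and lists were chosen with earlier results of these data known. Alternatives covered filters, normalization, variance model, gene summary, the exon usage test and leaving out each array. Counting only genes above background was added after seeing the data.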

Additional observations from a re-analysis of the deposited data

Results flagged for a closer look

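Among 52 groups of 4 arrays tested for an outlying value in the named enzymes, 1 was marked, and chance marks about 1 in 20. It was Nqo2 in control rat 196, at 7.28, where the other controls lay between 7.06 and 7.08. Probe sets annotated to 8 Ugt1a symbols at once belong to no gene counted here, and their mean was higher by 1.82 in EAE than in controls, with single probe sets higher by 1.06 to 2.23.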

How the results depend on the processing

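No paired analysis was possible because the groups share no animal numbers and no litter is given per animal. No direction of the 23 enzymes past the threshold was reversed in 367 comparisons over 16 settings. The call was lost in 59 of these, spread over 14 enzymes. With array quality weights 19 enzymes were higher and 23 lower, where 16.9% and 26.9% of all genes passed, and the cause was not tested. Leaving out 1 array at a time gave 9 to 15 higher and 5 to 16 lower enzymes, 22 to 63 higher and 21 to 60 lower probe sets, and 2 to 12 enzymes with unequal change among probe sets. In the same fits 11.7% to 14.8% of all genes were higher, 12.4% to 19.6% lower and 15.5% to 37.8% had unequal change. The lowest count of lower enzymes, 5, came without control rat 194, and the counts were 6 without EAE rat 218 and 7 without EAE rat 241 or control rat 196. The count with unequal change was 5 of 44 with the stricter filter at the 50th percentile, which tests fewer enzymes and where 26.1% of all genes passed, and 4 of 87 with deviations of single probe sets combined by Simes, where 13.1% passed. Without any filter 13 of the 132 enzymes were higher and 10 lower, 19 of them shared with the filtered fit, where 27.5% of all 7830 genes passed. Of the 13 enzymes not measured, only Ugt1a1 passed there, at 3.62 in EAE and 3.18 in controls, which is at background. Centring each array on its median moved the median change of all genes to -0.17.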
